A study of Mus musculus with 2 samples.

Results

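The Notch pathway was followed in retinal endothelial cells through 10 genes, out of the 19813 gene symbols measured in both libraries. They were chosen by name and by role, with earlier results of these data known. They are 3 ligands (Dll4, Jag1, Jag2), 2 receptors (Notch1, Notch4), the DNA-binding partner Rbpj and 4 target genes (Hey1, Heyl, Hes1, Nrarp). Single-cell RNA sequencing had been performed on 1 library from postnatal day (P)6 and 1 library from P15 retinas of wild-type C57BL/6 mice. Both libraries were sorted for cells that carry the endothelial surface protein CD31 and lack the blood cell protein CD45, and neither carried a transgene or a treatment. The number of pups pooled for each library is not given in the sources used here. With 1 library per age, an age difference and a library difference cannot be told apart, no test between ages was possible, and all intervals below are 95% intervals that cover counting error only.

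Notch signaling passes between neighboring cells. A Delta-like or Jagged ligand on one cell pulls on a Notch receptor on the next, the receptor is cut, and its freed intracellular part joins Rbpj on DNA to switch on genes of the Hes and Hey families. In the growing retinal vasculature this pathway is known for restraining tip cell formation, where Dll4 and Jag1 act in opposition, and for promoting arterial identity.

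A unique molecular identifier (UMI) marks each captured mRNA, so that copies made in amplification are counted once. In all, 13958124 UMIs in 1984 barcodes were deposited for P6 and 11589641 UMIs in 2141 barcodes for P15. After the exclusion criteria stated by the study 1424 P6 cells (median depth 4985 UMIs) and 1644 P15 cells (median depth 4214 UMIs) remained. Levels are given in CPM, the UMIs of a gene per 1000000 UMIs of the cells concerned. Cldn5, which encodes the endothelial tight junction protein claudin-5, was found in 99.8% of these P6 cells and 99.9% of these P15 cells. The libraries shared 7 barcodes, of which 2 passed in both. Names of 9 clusters given by the study were at hand for 1560 P6 cells and 438 P15 cells. Of these, 1399 and 409 passed the criteria as applied here, and levels by cluster use all labelled cells while levels by library use passing cells. The names Arterial and Cap-Arterial had been given with the help of Jag1 and Hey1, and the clusters had been built from all genes, so levels by cluster describe these cells and are no test.

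Promoter sequences of Dll4 and Jag1, the ligands that ordered P6 Tip and Stalk cells in opposite ways, are shown with the word CACGCG, which Hes and Hey proteins are known to bind, in capitals on either strand. Each is the 250 bases before the RefSeq start on GRCm38.p6, read 5′ to 3′ along the gene (Dll4 at chr2:119325534-119325783 on the plus strand, Jag1 at chr2:137116521-137116770 on the minus strand). The third sequence is that of Rbpj (chr5:53590096-53590345, plus strand), in which capitals mark TGGGAA, the core of the word that Rbpj itself is known to bind. This RefSeq start lies inside the annotated gene (53466152 to 53657362), not at its first base. The Jag1 start also lies inside its annotated gene (137081456 to 137116644), so part of the Jag1 sequence shown is within that gene. Another Rbpj window (53590236 to 53590535) overlaps the Rbpj sequence shown and is not printed.
Dll4: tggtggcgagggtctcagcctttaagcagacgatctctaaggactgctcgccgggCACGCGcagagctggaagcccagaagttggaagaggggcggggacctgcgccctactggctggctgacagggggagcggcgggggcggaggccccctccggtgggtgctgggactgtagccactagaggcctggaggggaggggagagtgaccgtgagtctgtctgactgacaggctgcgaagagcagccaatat
Jag1: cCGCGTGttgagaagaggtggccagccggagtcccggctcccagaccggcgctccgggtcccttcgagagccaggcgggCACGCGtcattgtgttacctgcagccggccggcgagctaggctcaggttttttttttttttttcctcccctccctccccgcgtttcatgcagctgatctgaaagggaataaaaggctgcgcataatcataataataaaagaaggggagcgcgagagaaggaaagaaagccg
Rbpj: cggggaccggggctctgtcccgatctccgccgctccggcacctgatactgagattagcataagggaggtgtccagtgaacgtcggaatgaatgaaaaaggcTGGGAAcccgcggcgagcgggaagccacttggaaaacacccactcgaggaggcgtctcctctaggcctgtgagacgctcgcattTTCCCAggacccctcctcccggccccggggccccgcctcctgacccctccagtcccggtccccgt
Of the 10 genes, 7 had a RefSeq window, which runs from 250 bases before to 50 bases after the start. CACGCG was in the windows of all 3 ligands, with 1 match each in Dll4 and Jag2 and 2 matches in Jag1. It was in 9.27% of the 32851 windows compared, which leave out a chromosome. Among the 7 genes TGGGAA was only in the Rbpj windows, against 25.6% of the windows compared. The longer word GTGGGAA was in none of the 7, against 6.38% of the windows compared. The E-box CACGTG was in the Nrarp window alone, against 7.15% of the windows compared. These matches are letters within a fixed window and show no binding.

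Dll4, on chromosome 2 (GRCm38, 119325784 to 119335962), encodes the ligand that tip cells present to their neighbors. Over all passing cells its level was 137 CPM (interval 129 to 146) at P6 and 117 (109 to 125) at P15, a P15 to P6 ratio of 0.854 (0.780 to 0.936). At P6 the level was 238 CPM (175 to 316) in Arterial, 212 (186 to 241) in Tip, 170 (143 to 200) in Cap-Arterial and 155 (123 to 193) in Capillary cells. Cap-Venous cells held 126 (113 to 141), Venous cells 148 (106 to 200) and Stalk cells 118 (101 to 138). The level was 96.8 (82.4 to 113) in Primordial-Proliferative cells and 43.5 (31.2 to 59.1) in Primordial cells. Only Primordial cells lay apart from their neighbor in this order by intervals that did not overlap. Dll4 was thus spread over the whole vascular bed, with the Tip level 1.77 times (1.53 to 2.05) and the Arterial level 1.86 times (1.36 to 2.49) that of all other labelled cells.

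Jag1, also on chromosome 2 (137081456 to 137116644), encodes a Jagged ligand that is known for use by arteries and by stalk cells. Its level was 203 CPM (193 to 213) at P6 and 148 (139 to 157) at P15, a ratio of 0.728 (0.673 to 0.787). Within the P6 library it was 1088 (948 to 1244) in Arterial cells, 434 (401 to 470) in Stalk cells and 47.8 (34.9 to 63.9) in Primordial cells. The 6 other clusters lay between 104 in Cap-Venous and 225 in Venous cells, with Tip cells at 123 (104 to 146). Both Arterial and Stalk cells stood above every other cluster without overlap of intervals. The level in Stalk cells was 2.89 times (2.62 to 3.18) that of other labelled cells, and 23 of the 40 Arterial cells and 93 of the 230 Stalk cells held 3 or more Jag1 UMIs, against 11 of 170 Tip cells.

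Dll4 and Jag1 therefore ordered Tip and Stalk cells in opposite ways at P6. Dll4 was 212 in Tip against 118 in Stalk cells, and Jag1 was 123 in Tip against 434 in Stalk cells, both in CPM. Among labelled P15 cells Dll4 was 151 (110 to 204) in Tip and 129 (96.1 to 170) in Stalk cells, with intervals that overlapped. With names predicted for the other P15 cells it was 185 (160 to 213) and 101 (82.9 to 121). UMIs of both ligands were often found in the same barcode. Of the 1560 labelled P6 cells, 433 held UMIs of both, 298 of Dll4 alone, 369 of Jag1 alone and 460 of neither. Of Tip cells, 62 of 170 held both and 47 Dll4 alone. Stalk cells held both in 90 of 230 cells and Jag1 alone in 86. Of the 40 Arterial cells, 19 held both, 17 Jag1 alone, 3 Dll4 alone and 1 neither. A cell with a UMI of one gene tends to be deeper, and the median depth was 5947 UMIs in labelled cells with Dll4 and 4968 in those without it. Free RNA can add to such counts. In 54 P6 barcodes with 3 or more UMIs of the neuronal gene Neurod1 (median depth 5521 UMIs), Jag1 was found in 27.8% and Dll4 in 13%, beside 48.8% and 64.1% of Tip and 76.5% and 48.3% of Stalk cells. How many barcodes with both ligands were cells that made both was not tested.

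**Figure D1:**
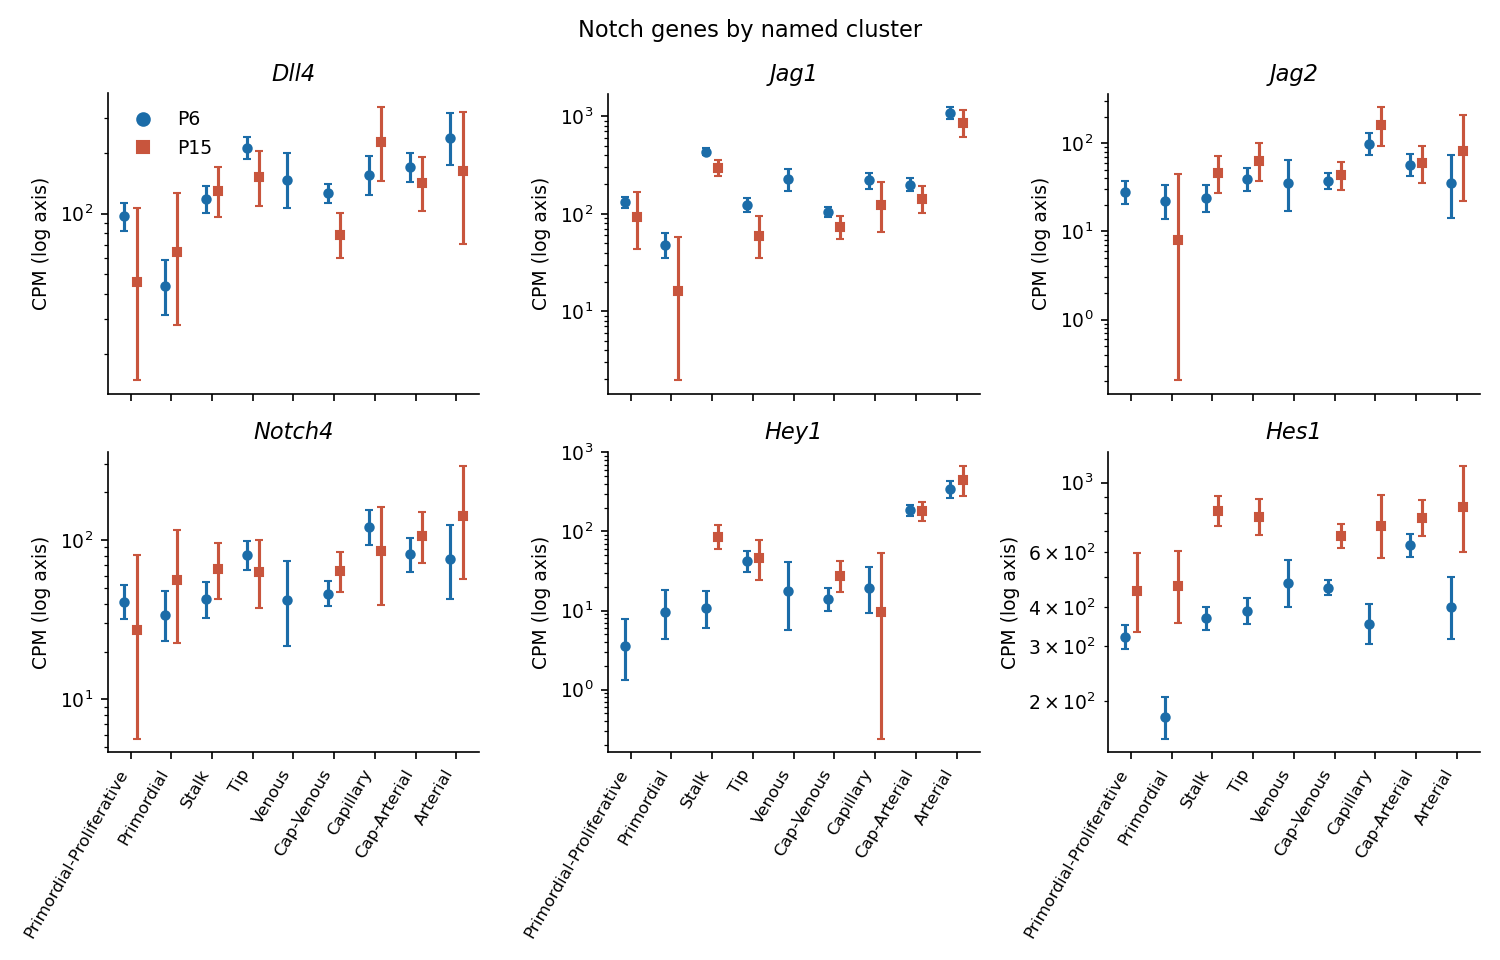
Levels of Dll4, Jag1, Jag2, Notch4, Hey1 and Hes1 by named cluster, in CPM on log axes that differ between panels, for P6 (circles) and P15 (squares). Bars are exact Poisson 95% intervals over the cells of 1 library, and groups under 10 cells or without a UMI are not drawn. Jag1 peaks in Arterial and Stalk cells at both ages, Hey1 in Arterial and Cap-Arterial cells, and Hes1 lies higher at P15 in every cluster drawn.

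Jag2 (chromosome 12, 112907819 to 112929776), the second Jagged ligand, had 41.5 CPM (37.0 to 46.3) at P6 and 57.0 (51.7 to 62.7) at P15, a ratio of 1.37 (1.19 to 1.60). Among P6 clusters it was highest in Capillary cells at 99.5 (74.3 to 130) and was 57.4 (42.3 to 76.1) in Cap-Arterial cells. The other clusters lay between 22.3 in Primordial and 39.3 in Tip cells. Its pattern differed from that of Jag1, since Arterial cells held 35.4 (14.2 to 73.0) and Stalk cells 24.2 (16.8 to 33.8).

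Notch4 (chromosome 17, 34564268 to 34588503), the receptor known as largely endothelial, had 60.7 CPM (55.3 to 66.5) at P6 and 65.9 (60.2 to 72.1) at P15, a ratio of 1.09 (0.955 to 1.24). Like Jag2 it was highest in P6 Capillary cells at 121 (92.6 to 154). Cap-Arterial cells held 81.3 (63.2 to 103), Tip cells 80.4 (64.7 to 98.9) and Arterial cells 75.9 (42.5 to 125), and the remaining 5 clusters lay between 34.0 and 46.2. Notch4 was 2.34 times (1.77 to 3.05) and Jag2 2.92 times (2.13 to 3.92) higher in Capillary cells than in other labelled cells. This cluster, chosen for mention after its values were seen, held 2 of the 7 members with enough UMIs past 2-fold, against 5.91% of all genes. It was the shallowest P6 cluster, with a median of 3204 UMIs, and it had the highest median mitochondrial share at 2.51%. Malat1, a nuclear RNA, stood at 12029 CPM in Capillary cells, above all P6 clusters except Cap-Arterial and Arterial cells. Among labelled P15 cells Notch4 was 85.1 (38.9 to 162) in Capillary cells, from 9 UMIs. It was 106 (72.3 to 149) in Cap-Arterial and 143 (57.4 to 294) in Arterial cells. The P15 Capillary level was 1.22 times (0.546 to 2.38) that of other labelled cells for Notch4, and 3.56 times (1.99 to 6.01) for Jag2. The part of RNA quality in the Jag2 and Notch4 levels was not tested.

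Notch1 (chromosome 2, 26457903 to 26516663), the main endothelial Notch receptor in textbook accounts, was read at low depth here. It had 77 UMIs or 10.1 CPM (7.95 to 12.6) at P6 and 92 UMIs or 12.5 CPM (10.1 to 15.3) at P15, a ratio of 1.24 (0.906 to 1.70). The largest count in a P6 cluster was 23 UMIs, in Cap-Venous cells, and the level by cluster ran from 5.31 (1.72 to 12.4) in Primordial to 19.1 (10.9 to 31.1) in Cap-Arterial cells, so no order could be read apart from these ends, whose intervals overlapped. Of the 1560 labelled P6 cells 28 held both receptors, 63 Notch1 alone and 400 Notch4 alone. Notch1 was in 3.23% to 9.26% of cells by cluster, not above the 13% of Neurod1 barcodes, so these pairs are not read as expression in the same cell, and Notch4 was in 17.4% to 41.2% by cluster against 5.56%. Rbpj (chromosome 5, 53466152 to 53657362) had 127 UMIs or 16.6 CPM (13.8 to 19.8) at P6 and 133 UMIs or 18.0 CPM (15.1 to 21.4) at P15, a ratio of 1.09. Its highest level by cluster, 38.7 (19.3 to 69.2) in Venous cells, came from 11 UMIs. Both genes were also found in barcodes marked by a neuronal gene. In the 54 P6 barcodes with Neurod1, Rbpj stood at 42.4 (26.9 to 63.6) and Notch1 at 12.9 CPM (5.19 to 26.6), so low counts of these 2 genes do not mark endothelial cells.

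Hey1 (chromosome 3, 8663359 to 8667256), a transcriptional repressor and Notch target of arteries, was the member that separated clusters most. At P6 it stood at 339 CPM (263 to 431) in Arterial and 185 (157 to 217) in Cap-Arterial cells, with 42.0 (30.9 to 55.9) in Tip cells. The other 6 clusters lay between 3.58 in Primordial-Proliferative and 19.1 in Capillary cells. A Hey1 UMI was found in 75.0% of Arterial, 46.3% of Cap-Arterial and 17.6% of Tip cells, against 11.1% (4.19% to 22.6%) of the 54 barcodes with Neurod1, taken as background. Whether neurons make Hey1 themselves was not tested, and Cldn5 stood at 348 CPM in these barcodes against 5585 in passing cells. The Tip share lay inside the interval of the Neurod1 barcodes. By level, Tip cells lay above these barcodes, which held 11.1 CPM (4.06 to 24.1), without overlap of intervals. Shares of 3.03% to 9.52% in the remaining clusters were not above this background. After each cell was thinned to 3000 UMIs, which left out 179 P6 and 481 P15 passing cells, Hey1 was in 65.6% of Arterial, 34.6% of Cap-Arterial and 12.2% of Tip cells and in 4.44% of the Neurod1 barcodes. In P6 Arterial cells Hey1 was found in 20 of 22 cells with Dll4 and in 10 of 18 cells without it, with median depths of 4914 and 4059 UMIs. For Jag1, the same 40 cells held both genes in 26, Jag1 alone in 10 and Hey1 alone in 4. Of the 11 named P15 Arterial cells 2 held Dll4 and Hey1, 2 Dll4 alone and 7 Hey1 alone. The direction differed between these pairs and ages, so no link of ligand and target within cells is read from them.

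Hes1 (chromosome 16, 30064384 to 30067796), a repressor that several pathways induce, was found in all clusters. Its P6 level was 629 CPM (577 to 685) in Cap-Arterial cells and 177 (151 to 206) in Primordial cells, which both stood apart from the rest. The 7 other clusters lay between 321 and 478, with Arterial cells at 400 (317 to 498). Arterial cells were therefore the highest cluster for Hey1 and an intermediate one for Hes1. Nrarp (chromosome 2, 25180758 to 25183339), a target whose product damps Notch signaling, had 58 UMIs or 7.58 CPM (5.76 to 9.80) at P6 and 39 UMIs or 5.29 CPM (3.76 to 7.23) at P15. Its ratio of 0.698 (0.453 to 1.06) included 1, and its clusters could not be ordered, with at most 22 UMIs in one of them.

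The order of clusters could be set against all genes with at least 100 UMIs in labelled P6 cells, of which 8019 qualified. The 3 members (Notch1, Heyl, Nrarp) that fell short of this count leave 7. At least 2-fold above other labelled cells were 2 of the 7 in Arterial cells (Jag1 and Hey1), where 10.1% of all genes were, and 1 in Cap-Arterial cells (Hey1), where 4.19% were. Jag1 and Hey1 had helped to name these clusters, so these counts are no test. Stalk cells had 1 of the 7 (Jag1), against 1.26% of genes, and Tip cells none, against 1.33%. In Primordial cells, named after their values were seen, 4 of the 7 (Dll4, Jag1, Hey1, Hes1) were lower by at least 2-fold, where 23.4% of all genes were. These cells were also low in Malat1, with 711 CPM against 4477 to 25799 in the other P6 clusters.

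The remaining Notch pathway was represented by a list of 46 genes, of which 29 had enough UMIs. Of the 29, 2 passed 2-fold in Arterial cells, namely Fbxw7 (2.55), whose product marks the freed receptor for degradation, and Eogt (2.20), a glycosyltransferase acting on Notch, with Dtx3 next at 1.69. This was 6.90% of the 29, beside 10.1% of all genes. In Cap-Arterial cells these were Lfng (2.21), the Fringe enzyme that favors Delta-like over Jagged ligands, and Pofut1 (2.01), which adds the fucose that Fringe extends, and Eogt followed at 1.82, again 6.90%, beside 4.19% of all genes. In Stalk cells only the receptor Notch2 (2.70) passed, or 3.45% beside 1.26%. None of the 29 passed in Tip cells, beside 1.33% of all genes, and there Tspan15 (1.57), Psen2 (1.41) and Spen (1.35) led.

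Between the 2 libraries, 2 of the 7 members with at least 200 UMIs were higher at P15 by 1.5-fold or more, beside 16.6% of 7455 genes. None of the 7 was lower by that much, beside 9.68% of genes. The 2 were Hey1, with 41.2 CPM (36.8 to 46.0) at P6 and 78.7 (72.4 to 85.4) at P15, a ratio of 1.91, and Hes1, with 391 (377 to 406) and 733 (713 to 752), a ratio of 1.87. The median ratio was 1.09 over the 7 members and 1.09 over all genes counted, a shift of 0.13 on the log2 scale. Relative to that shift the ratios were 1.75 for Hey1, 1.71 for Hes1, 1.26 for Jag2, 0.782 for Dll4 and 0.666 for Jag1, and Jag1 then also passed 1.5-fold. Ligands held members on both sides of 1, with Jag2 above it. The targets with at least 200 UMIs, Hey1 and Hes1, both lay above 1. Nrarp, which fell short of that count, had a ratio of 0.698 with an interval (0.453 to 1.06) that included 1. Dll4 passed 1.5-fold at neither scaling.

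**Figure D2:**
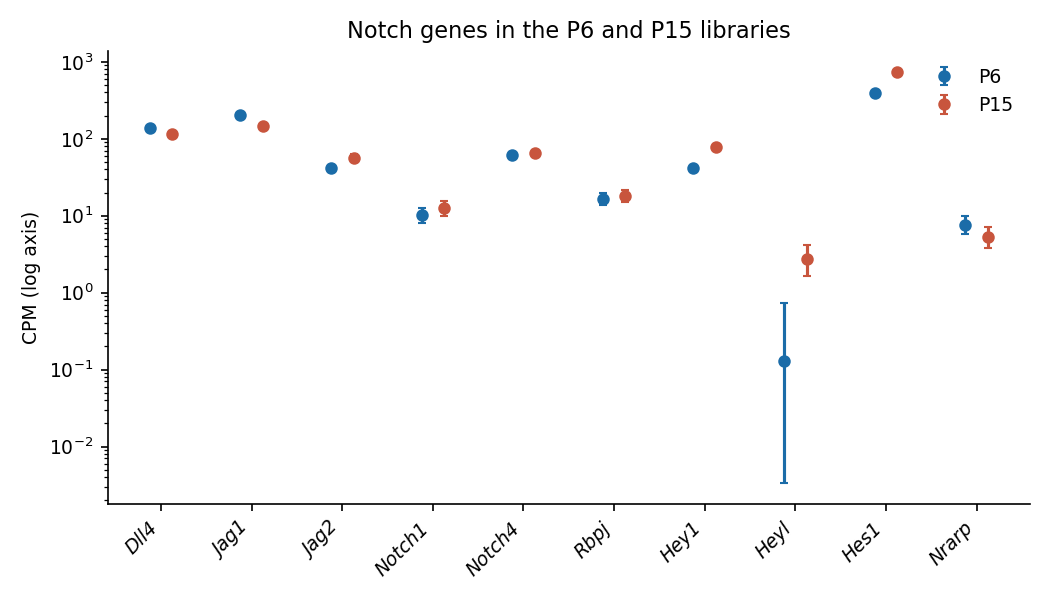
Levels of the 10 Notch genes over all passing cells of the P6 and P15 libraries, in CPM on a log axis, with exact Poisson 95% intervals for counting error. Hey1 and Hes1 lie higher at P15, Dll4 and Jag1 lower, and Heyl rests on 1 UMI at P6 and 20 at P15.

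Hes1 was higher at P15 within every cluster of at least 10 labelled P15 cells. The ratio was smallest in Cap-Arterial cells at 1.23 (1.05 to 1.44) and largest in Primordial cells at 2.64 (1.92 to 3.58). Stalk cells had 2.21 (1.92 to 2.55), Tip cells 2.0 (1.69 to 2.36) and Cap-Venous cells 1.46 (1.32 to 1.62). The lead of Cap-Arterial cells at P6 was no longer seen at P15, where Arterial, Stalk, Tip, Cap-Arterial, Capillary and Cap-Venous cells lay between 674 and 836 CPM. Immediate early genes moved with Hes1 over the whole library. Fos stood at 66.3 and 332, Jun at 134 and 622, and the flow-responsive Klf2 at 581 and 2019 CPM at P6 and P15, and Malat1 at 8742 and 21402. Their part in the Hes1 difference was not tested.

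Hey1 ratios were spread widely over the clusters. The ratio was 0.98 (0.707 to 1.34) in Cap-Arterial cells, whose interval did not reach the 1.91 of the whole library, and 1.32 (0.778 to 2.17) in Arterial cells, of which the P15 library had 11 with a name, and 1.09 (0.541 to 2.05) in Tip cells, and these intervals included 1.91. It was 8.05 (4.27 to 15.9) in Stalk cells, from 15 UMIs in 230 P6 cells and 34 UMIs in 85 P15 cells, and 1.98 (1.10 to 3.47) in Cap-Venous cells. With predicted names for the other P15 cells the Stalk ratio was 4.44 (2.55 to 8.13) and the Cap-Arterial ratio 1.27 (1.05 to 1.56). The ratio was then 1.10 (0.721 to 1.68) in Tip and 1.23 (0.88 to 1.73) in Arterial cells, and neither interval reached 1.91. In Cap-Venous cells it was 2.05 (1.38 to 3.09). In Stalk cells Gja4, an arterial gap junction gene, was 81.2 CPM at P6 and 65.8 at P15, and Sox17, an arterial transcription factor, was 154 and 395. Hey1 was found in 6.09% of P6 and 21.2% of P15 Stalk cells, whose median depths were 5448 and 3875 UMIs. The P6 Stalk level of 10.7 CPM was close to the 11.1 (4.06 to 24.1) of the Neurod1 barcodes, so the Stalk ratio is set against a background level. At P15 only 5 barcodes had 3 or more Neurod1 UMIs. Of these 1 held Hey1 (20%, 0.505% to 71.6%), too few to set a background. Of the 17 with any Neurod1 UMI 6 held Hey1 (35.3%), but Cldn5 stood at 6757 CPM there, against 9957 in passing cells. Those 17 barcodes thus held much endothelial RNA and cannot serve as background. Whether the P15 Stalk share exceeded background could not be decided.

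**Figure D3:**
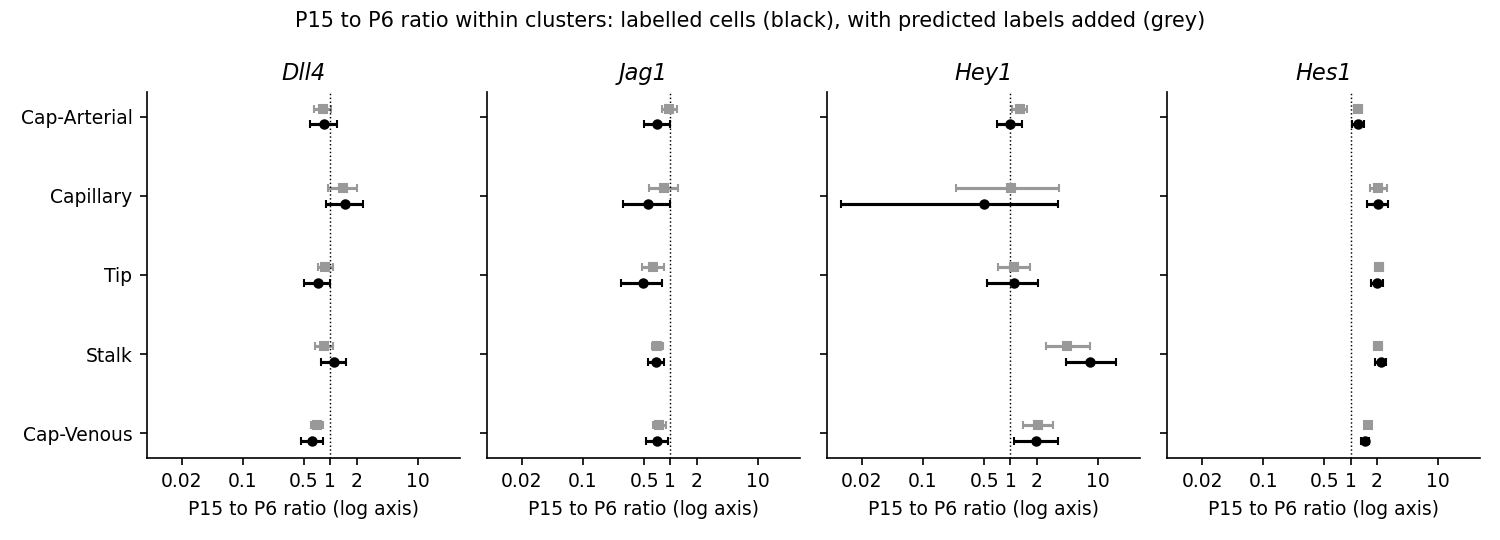
Ratio of P15 to P6 levels (log axis) of Dll4, Jag1, Hey1 and Hes1 within 5 clusters, over labelled cells (black circles) and with predicted labels added (grey squares). Bars are 95% intervals for counting error. Hes1 lies above 1 in all 5 clusters and Jag1 below 1 in all 5, while Hey1 is above 1 in Stalk cells, where the P6 level was at background, and near 1 in Cap-Arterial and Tip cells.

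Jag1 was lower at P15 in each cluster with at least 10 labelled P15 cells, with ratios from 0.338 in Primordial cells, where P15 had 2 UMIs, to 0.787 (0.551 to 1.10) in Arterial cells. With predicted names the ratio was 0.814 in Primordial and 0.968 (0.793 to 1.18) in Cap-Arterial cells. Stalk cells had a ratio of 0.687 (0.559 to 0.838), with 434 CPM at P6 and 299 (247 to 358) at P15. At P15 Jag1 again stood highest in Arterial cells at 856 (617 to 1157) and next in Stalk cells, and Tip cells held 59.8 (34.9 to 95.8). Dll4 ratios lay on both sides of 1. The ratio was 0.622 (0.465 to 0.821) in Cap-Venous, 0.714 (0.504 to 0.992) in Tip and 0.836 (0.580 to 1.18) in Cap-Arterial cells, and it was 1.09 (0.781 to 1.5) in Stalk and 1.46 (0.888 to 2.33) in Capillary cells. With predicted names the Stalk ratio of Dll4 turned to 0.848 (0.662 to 1.08). For Jag2 the ratio was 1.88 (1.0 to 3.43) in Stalk, 1.62 (0.876 to 2.84) in Capillary, 1.61 (0.876 to 2.85) in Tip, 1.15 (0.751 to 1.72) in Cap-Venous and 1.04 (0.567 to 1.81) in Cap-Arterial cells. Arterial and Primordial cells of P15 held 4 and 1 Jag2 UMIs, and Primordial-Proliferative cells 0, against 47 at P6, with an interval of the ratio up to 1.25. With predicted names the Jag2 ratio was 4.72 (2.05 to 12.7) in Arterial cells, from 7 UMIs at P6 and 32 at P15. It was 1.85 (1.21 to 2.81) in Capillary cells and 0.59 (0.155 to 1.61) in Primordial-Proliferative cells, the only cluster below 1. For Notch4 the ratio in labelled cells ran from 0.706 in Capillary to 1.54 in Stalk cells among the 5 largest clusters of P15, with intervals that all included 1.

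Of the 29 other pathway genes with at least 200 UMIs, 5 were higher at P15 by 1.5-fold or more (17.2%, near the 16.6% of all genes) and 1 was lower (3.45%, beside 9.68%). The median ratio was 1.26, beside 1.09 over all genes. Lfng had the largest ratio at 1.99 (1.75 to 2.26), with 47.1 CPM at P6 and 93.5 at P15. Also higher were Tspan5 at 1.87, a tetraspanin that accompanies the protease ADAM10, Dtx3 at 1.55 and Spen, which encodes a corepressor bound by Rbpj, at 1.51. Tspan15, another tetraspanin partner of ADAM10, had the smallest ratio at 0.566 (0.497 to 0.643), and Mib1, whose product drives ligand uptake, Notch2, Adam17 and Tspan14 followed at 0.693, 0.801, 0.966 and 0.978. Lfng was higher at P15 in Cap-Venous cells with a ratio of 2.16 (1.61 to 2.88), and had 1.20 (0.772 to 1.83) in Cap-Arterial cells.

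Heyl (chromosome 4, 123233556 to 123249875), a Hey family target, is also known as a gene of mural cells. Passing cells held 1 Heyl UMI at P6 and 20 at P15, or 0.131 (0.00331 to 0.729) and 2.71 CPM (1.66 to 4.19), a ratio of 20.8 with an interval from 3.32 to 860. Pericyte markers moved with it. The 8 genes of the pericyte list summed to 11.2 CPM at P6 and 274 at P15, with 1 of the 8 at 0 in each (Cspg4 at P6, Tagln at P15), and the pericyte gene Rgs5 alone stood at 8.76 and 242. In barcodes with 50 or more UMIs of this list, Heyl was 274 (110 to 564) in the 5 such barcodes of P6 and 329 (269 to 398) in the 59 of P15, and it was found in 74.6% of the latter. Without cells holding 2 or more pericyte UMIs, 6 Heyl UMIs remained in 1473 P15 cells, or 0.928 (0.340 to 2.02) CPM, and the pericyte list was still at 48.9. Labelled cells held 1 Heyl UMI at P6 and 1 at P15, but only 438 P15 cells were labelled, beside 1644 passing cells. With predicted names P15 Stalk cells held 6 Heyl UMIs, Cap-Arterial 5, Cap-Venous 4, Tip 2, Arterial 2 and Venous cells 1. A count of 0 Heyl UMIs in P6 Arterial cells allows up to 15.2 CPM. Heyl in neuronal barcodes was 14.7 (6.37 to 29.1) CPM at P6. How much of the P15 level came from endothelial cells was not tested.

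**Figure D4:**
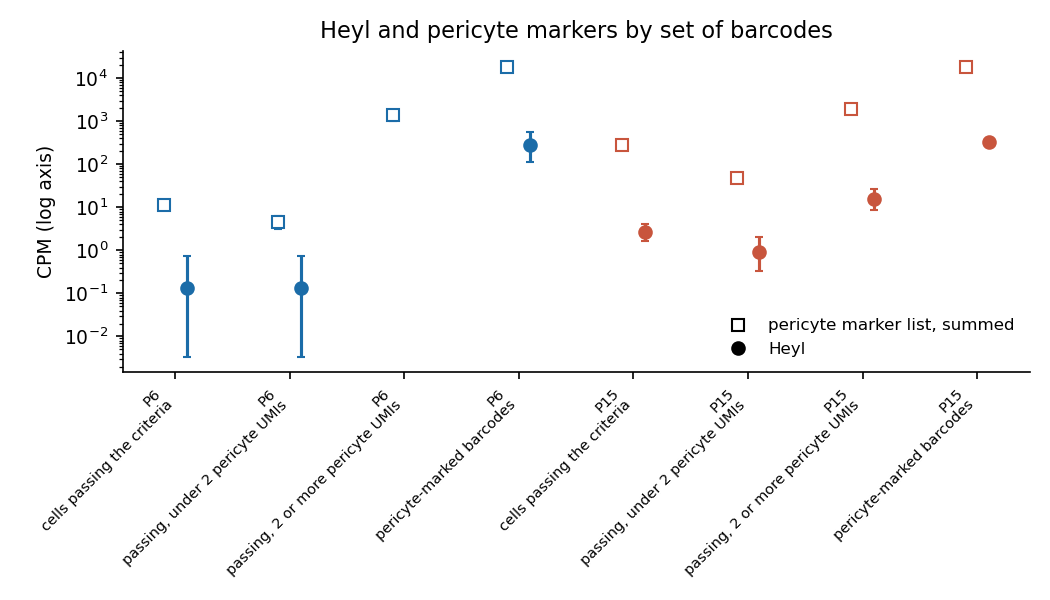
Heyl (filled circles) and the summed pericyte marker list (open squares) in sets of barcodes of each library, in CPM on a log axis, with exact Poisson 95% intervals for counting error. Heyl is 274 at P6 and 329 at P15 in pericyte-marked barcodes, and 0.131 and 0.928 in passing cells under 2 pericyte UMIs.

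Other members were also found in pericyte-marked barcodes. In the 59 of P15, Jag1 stood at 225 CPM (176 to 284), above the 148 (139 to 157) of passing cells. Notch4 was 62.6 (38.2 to 96.6) against 65.9 in passing cells, and Hes1 532 (455 to 618) against 733. Dll4 at 56.3 (33.4 to 89.0) and Hey1 at 25 (10.8 to 49.3) were below their levels of 117 and 78.7 in passing cells. Cldn5 in these barcodes was 2628 CPM, against 9957 in passing cells, so endothelial RNA was present there too. How much of each member's level it supplied was not tested.

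Over the 15 groups of library and cluster with at least 30 cells, the genes whose profile was most like that of Dll4 were Nrp1 (Pearson r = 0.898), which encodes a VEGF co-receptor, Mir99ahg (0.883) and Rbm4b (0.877), of 6539 genes compared. For Jag1 they were Rbm26 (0.894), Pik3c2b and Arl14ep, for Jag2 Smg1 (0.934), Dip2b and Dennd5a, for Notch4 Tmc6 (0.879), Smg6 and Elk4, and for Hey1 Prss23 (0.895), Nebl and Gadd45b. Hes1 was most like Foxq1 (0.945), Lfng (0.942) and Pink1 (0.934). Foxq1, which encodes a forkhead transcription factor, stood at 269 CPM at P6 and 527 at P15. Groups of a library share its depth and its sort, and these correlations across groups are descriptions. Notch1, Rbpj, Nrarp and Heyl had 126, 190, 80 and 2 UMIs in these groups, too few for their nearest genes to be read.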

How the data were processed

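Retinal cells were sorted by FACS for CD31 and against CD45, and 1 library per age was sequenced. The authors deposited raw UMI counts per gene and barcode, without normalization. The submitters' processing notes name mm10 and Seurat 3.0, and the aligner for these counts is not given in the sources used here. Identifiers sharing a symbol were summed, and a gene without a row in one table was not taken as 0. Positions came from the GENCODE annotation of GRCm38. Cluster names came from the source data of the study, complete for P6 and partial for P15.

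Cells were kept if they had 200 to 3500 genes and a mitochondrial share of up to 5%, and if Neurod1, Cd63 and Hbb-bt were all at 0. UMIs were summed over cells and divided by all UMIs of those cells (CPM). The 95% intervals are Clopper-Pearson for shares, exact Poisson for levels and conditional binomial for ratios. For a gene at 0 the limit is 3 counts. Unnamed cells received the majority name of 15 neighbors on 13 principal components made without the Notch genes, which returned the given name in 78.1% of cases at P6 and 82.6% at P15. Doublets were not removed beyond the criteria above, and 9 P6 and 12 P15 passing cells held both Xist and Y-linked UMIs. The likeness of profiles was Pearson r of log2(CPM + 10), among genes with at least 200 UMIs.

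With 1 library per age no p-value was computed. Genes were compared by fold, 1.5 between ages and 2 between clusters, with at least 200 or 100 UMIs. The named genes are the 10 members, the 5 largest and 5 smallest age ratios of the pathway list, its 3 largest ratios in Arterial, Cap-Arterial and Tip cells, the 3 genes most like each member, and markers beside a member. The values of 1 gene of the pathway list are not reported here. Malat1, immediate early genes, Foxq1 and the Primordial and Capillary counts were added after values were seen. The members and lists were chosen with earlier results of these data known. Steps were tested on simulated data. Scripts ran in Python 3.11.15 (scikit-learn 1.9.0, scipy 1.17.1, numpy 2.4.6, matplotlib 3.10.9, pandas 2.3.3).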

Additional observations from a re-analysis of the deposited data

How the results depend on the processing

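No paired analysis was possible because each age had 1 library and the labels give no replicate numbers. No library was left out, since that removes an age. With a fold of 2 between ages, 0 of the 7 members were higher at P15 in place of 2, and over all genes 420 were higher and 297 lower in place of 1234 and 722. With at least 50 UMIs 2066 of 10972 genes were higher (18.8%) and 1298 lower (11.8%), beside 16.6% and 9.68% of 7455 genes. Scaling by the median ratio over genes made 1 member (Jag1) lower in place of 0. With a fold of 1.5 between P6 clusters, 4 members passed in Arterial and 4 in Cap-Arterial cells in place of 2 and 1, 2 in Tip cells (Dll4 and Notch4) in place of 0, and 7 in place of 4 were lower in Primordial cells. Over the 8019 genes 1756, 1105, 483 and 3158 then passed in these clusters, in place of 807, 336, 107 and 1879. With at least 30 UMIs 2 passed in Cap-Arterial cells (Notch1 and Hey1) in place of 1. Over all genes 743 of 10926 then passed there, in place of 336 of 8019.

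The P15 to P6 ratio of Dll4, 0.854 over all cells, was 1.09 in labelled Stalk cells (0.848 with predicted names) and in Capillary cells 1.46 (labelled) or 1.39 (with predicted names), and that of Hey1, 1.91 over all cells, was 0.98 in labelled Cap-Arterial cells. These values by cluster were added after the data were seen, and the cause was not tested. Of 89 planned recalculations of the age ratios 79 stayed inside the interval of the value given, and 10 moved beyond it. Of the 89, 4 crossed 1, namely Notch4 at 0.943 and Rbpj at 0.987 after thinning and both at 0.994 after median scaling, and the interval of both ratios had included 1. Of 315 cluster ratios 304 stayed inside and 11 moved, and of the 315, 16 crossed 1, each from an interval that had included 1. Levels by P15 cluster stayed inside in 46 of 48 cases with predicted names. Thinning moved 18 of 20 shares of cells, as it lowers depth by construction. Depth limits Notch1, Rbpj, Nrarp and Heyl, which had under 200 UMIs in each library.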
